A study of Homo sapiens with 6 samples.

Results

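The genes described here are the non-keratin intermediate filament genes VIM, NES, DES, SYNM, LMNA, LMNB1, LMNB2, NEFL, NEFM and INA, chosen as a gene family and matched by symbol. All 10 were found, each with 1 amplicon, among the 20811 genes of the table. Expression was measured in HuCCT1, a human intrahepatic cholangiocarcinoma cell line, after delivery of a lentivirus at an MOI of 40. HuCCT1/CD90+ cells received THY1-CMV-GFP, which carries THY1, the gene of the surface glycoprotein CD90. HuCCT1/CD90- cells received the blank vector Lenti-CMV-GFP-2A-Puro, so GFP was named for both vectors and a puromycin cassette for the blank one alone. Each line was represented by 3 libraries of total RNA, amplified with a targeted transcriptome panel, and the values are in RPM, the reads of a gene normalised to the size of its library. The sources used here say neither whether the lines were clones nor whether the libraries of a line came from separate cultures, and p-values therefore measure the spread between these libraries.

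Intermediate filaments are the rope-like part of the cytoskeleton, built from rod-shaped proteins that pair and bundle. Epithelial cells build them mainly from keratins, whereas mesenchymal cells use vimentin, and epithelial tumour cells that take on mesenchymal features often gain vimentin. Nestin and synemin do not form filaments alone but assemble with vimentin or desmin, neurofilament proteins and α-internexin serve neurons, and the lamins line the inside of the nuclear envelope.

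The stretches upstream of VIM, NES and SYNM are shown because these genes had the strongest falls of the group. They are RefSeq sequences on GRCh38.p14, written 5′ to 3′ on the strand of the gene, and each covers the 250 bases before the start that RefSeq annotates. The gene spans given further on are those of GENCODE, whose outer ends differ from these starts, and the SYNM stretch lies inside the GENCODE span of SYNM. Capitals mark the GC box GGGCGG on either strand and, in SYNM, also the E-box CAGGTG on either strand.
VIM, chr10:17227991-17228240, plus strand: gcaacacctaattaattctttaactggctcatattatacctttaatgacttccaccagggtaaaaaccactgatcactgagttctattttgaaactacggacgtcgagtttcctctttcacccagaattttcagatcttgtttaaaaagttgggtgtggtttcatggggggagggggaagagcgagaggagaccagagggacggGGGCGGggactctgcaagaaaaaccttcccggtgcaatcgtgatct
NES, chr1:156677408-156677657, minus strand: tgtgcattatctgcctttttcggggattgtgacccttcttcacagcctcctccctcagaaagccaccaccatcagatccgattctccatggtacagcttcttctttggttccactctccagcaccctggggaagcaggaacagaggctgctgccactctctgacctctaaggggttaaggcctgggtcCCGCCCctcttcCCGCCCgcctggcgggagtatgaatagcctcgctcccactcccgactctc
SYNM, chr15:99104830-99105079, plus strand: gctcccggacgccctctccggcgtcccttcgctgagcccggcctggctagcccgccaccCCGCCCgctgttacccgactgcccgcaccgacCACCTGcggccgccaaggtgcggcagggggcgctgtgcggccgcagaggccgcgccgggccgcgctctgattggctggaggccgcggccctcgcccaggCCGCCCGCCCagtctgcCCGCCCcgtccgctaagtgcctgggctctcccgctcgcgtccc
The VIM stretch held 1 GC box, whose first base lay 46 bases before the start, and its GC content was 46.0%. NES held 2 upstream of its start, at 62 and 50 bases, with a GC content of 58.0%. SYNM held 4, at 191, 60, 56 and 43 bases, of which those at 60 and 56 overlapped, and its GC content was 78.8%. The E-box occurred in SYNM at 159 bases, and neither the VIM nor the NES window held it. Of all 35116 promoter windows of 300 bases (250 before to 50 after a start), 45.0% held the GC box and 20.6% the E-box. The TATA box TATAAA, present in 11.5% of all windows, and the AP-1 element TGANTCA, present in 7.71%, were not found in any of the 10 windows available for 7 of the members. These matches describe letters in a window and are not binding sites. DES, NEFL and NEFM were not matched to a window.

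The libraries held 8587634 to 10551516 reads on genes, so that 3 reads, used as a floor, corresponded to 0.284 to 0.349 RPM. THY1 had 0 or 1 read in each HuCCT1/CD90- library and 435 to 680 reads in each HuCCT1/CD90+ library. The biliary epithelial markers EPCAM, KRT7, KRT19 and SOX9 were above the floor in both lines. KRT7 stood at 3433 ± 330.3 and 3656 ± 321 RPM (SD, n = 3 each), and KRT19 at 3228 ± 214 and 4146 ± 214 RPM (SD, n = 3 each), in HuCCT1/CD90- and HuCCT1/CD90+. EPCAM and KRT19 were higher in HuCCT1/CD90+ by limma, and KRT7 and SOX9 did not pass the test.

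VIM, NES, SYNM and LMNA were lower in HuCCT1/CD90+ than in HuCCT1/CD90-, LMNB1 and LMNB2 did not pass the test, and the remaining 4 genes were at the floor in both lines. Vimentin, nestin and synemin were 3.57-, 3.91- and 3.19-fold lower in mean RPM, and lamin A/C was 1.75-fold lower. The threshold was an adjusted p of at most 0.05 in limma, a linear model fitted to log2(RPM + 1) of all 20811 genes, at which 9.52% of all genes were lower and 9.41% higher. Among the 12062 genes whose mean reached 1 RPM, 15.0% were lower and 14.4% higher, and of the 6 members above the floor 4 were lower and 0 higher. The same 4 members had all 3 HuCCT1/CD90+ libraries below all 3 HuCCT1/CD90- libraries, as did 26.9% of those 12062 genes. edgeR and DESeq2 on whole reads gave 4 lower and 0 higher as well, and 0 members were higher at an unadjusted p of 0.05. The median log2 fold change of the 6 members was -1.04, against -0.0086 over those 12062 genes. When replicate number entered the fit as a block, SYNM alone of the 6 members stayed lower (1 of 6), and 10.3% of the 12062 genes were lower in that fit.

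**Figure D1:**
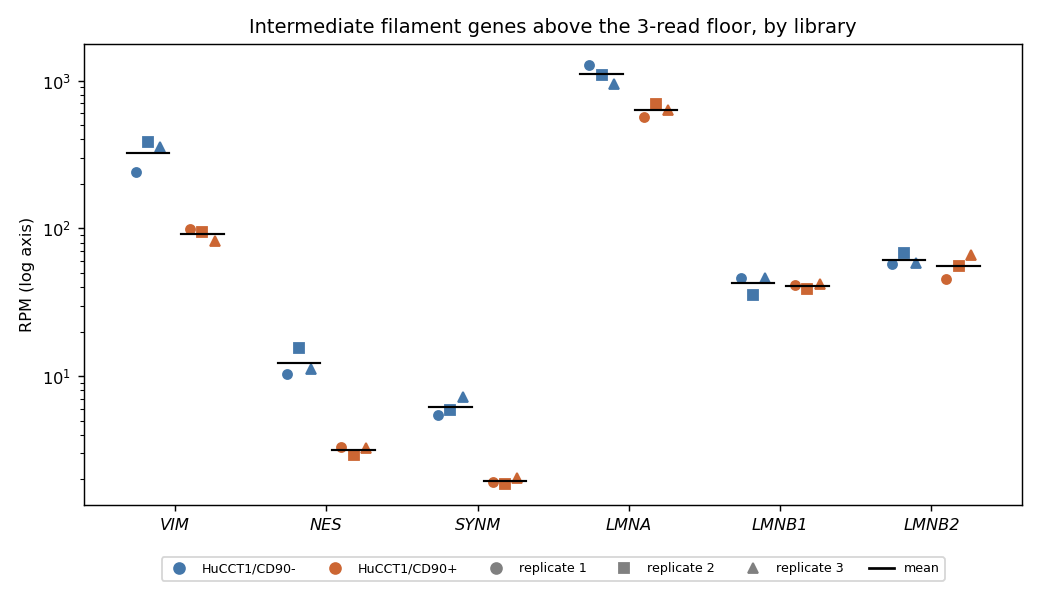
RPM of the 6 genes above the floor in each library, on a log axis. Points are single libraries coloured by line, their shape gives the replicate number, and bars mark the mean of 3 libraries. The lines do not overlap for VIM, NES, SYNM and LMNA and overlap for LMNB1 and LMNB2.

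VIM encodes vimentin, the type III filament protein of mesenchymal cells, and lies at chr10:17228259-17237593 on the plus strand of GRCh38. In HuCCT1/CD90- replicates 1, 2 and 3 it stood at 242, 383 and 353 RPM, from 2549, 3584 and 3637 reads. In HuCCT1/CD90+ it stood at 98.6, 94.0 and 81.6 RPM, from 920, 807 and 752 reads. Every HuCCT1/CD90- library was above every HuCCT1/CD90+ library, and HuCCT1/CD90- replicate 1 was the lowest of its line. The means were 326 ± 74.7 RPM (SD, n = 3) and 91.4 ± 8.80 RPM (SD, n = 3). On the log2(RPM + 1) scale the change was -1.80 (SE 0.21, 95% interval -2.36 to -1.24, limma adjusted p = 0.0086). With the replicate block the change was the same size, and its limma adjusted p was 0.059. Leaving out each library in turn gave changes from -2.00 to -1.67, all past the threshold. VIM overlaps the antisense gene VIM-AS1, which has no amplicon of its own in the table, and the sources do not say whether counting used the strand. In a bulk library, fewer cells with a transcript and less of it per cell cannot be told apart, for VIM as for all genes below.

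NES encodes nestin, a large type VI protein known from progenitor cells that co-assembles with vimentin, and lies at chr1:156668763-156677397 on the minus strand. Its level was 10.3, 15.6 and 11.2 RPM in HuCCT1/CD90-, from 109, 146 and 115 reads. In HuCCT1/CD90+ it was 3.32, 2.91 and 3.26 RPM, from 31, 25 and 30 reads. The lines did not overlap, and the HuCCT1/CD90+ libraries lay close together. The means were 12.4 ± 2.85 and 3.16 ± 0.221 RPM (SD, n = 3 each), and the log2 change, here and below on the same scale, which understates the change of low genes, was -1.66 (SE 0.17, 95% interval -2.11 to -1.22, limma adjusted p = 0.0060). With the replicate block the limma adjusted p was 0.051. An offset of 5 RPM in place of 1 RPM brought the log2 change to -1.08, since the offset exceeds the level of NES in HuCCT1/CD90+.

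SYNM encodes synemin, which ties vimentin and desmin filaments to adhesion sites, and lies at chr15:99098217-99135593 on the plus strand. It was read at 5.50, 5.89 and 7.28 RPM in HuCCT1/CD90-, from 58, 55 and 75 reads. In HuCCT1/CD90+ it was read at 1.93, 1.86 and 2.06 RPM, from 18, 16 and 19 reads. All HuCCT1/CD90+ libraries were below all HuCCT1/CD90- libraries. The means were 6.22 ± 0.935 and 1.95 ± 0.101 RPM (SD, n = 3 each), and the log2 change was -1.28 (SE 0.10, 95% interval -1.56 to -1.01, limma adjusted p = 0.0033). SYNM overlaps antisense genes without an amplicon of their own, as VIM does. SYNM was the member that kept its call under all 16 alternatives, with a limma adjusted p of 0.025 under the replicate block. As SYNM was counted from few reads its log2 change moved with the offset, from -1.61 at 0.1 RPM to -0.69 at 5 RPM.

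DES encodes desmin, the filament protein of muscle, and had 0, 1 and 1 reads in HuCCT1/CD90- and 1, 0 and 1 reads in HuCCT1/CD90+. INA, which encodes α-internexin, had 1 read in 1 HuCCT1/CD90- library and 0 in the other libraries. NEFL and NEFM, the light and medium neurofilament genes, had 0 reads in all 6 libraries, which allows up to 0.349 RPM in the shallowest library. No fold is given for these 4 genes, since both lines were at or under the floor. The 6 muscle markers summed to 0.380 to 1.26 RPM per HuCCT1/CD90- library and 1.93 to 3.69 RPM per HuCCT1/CD90+ library, with MYH7, CKM and MYOD1 at 0 in all libraries and TNNT2 the 1 gene called, as higher, with a limma adjusted p of 0.067 under the replicate block. The 5 neuronal markers summed to 1.33 to 5.46 RPM and 0.643 to 1.51 RPM, with RBFOX3 and GAP43 at 0 and 0 called by limma. At an unadjusted p of 0.05, by edgeR and by DESeq2, 1 neuronal marker was lower. By limma 9.41% of all 20811 genes were higher and 9.52% lower.

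LMNA encodes lamins A and C, the A-type lamins, and lies at chr1:156082573-156140089 on the plus strand. In HuCCT1/CD90- it stood at 1276, 1093 and 948 RPM, and in HuCCT1/CD90+ at 571, 690 and 633 RPM. The lines did not overlap, and each library held at least 5326 reads of LMNA. The means were 1105 ± 164 and 631 ± 59.3 RPM (SD, n = 3 each), and the log2 change was -0.80 (SE 0.14, 95% interval -1.17 to -0.43, limma adjusted p = 0.025). The call was less firm than those of VIM, NES and SYNM, with 10 of 16 alternatives past the threshold. The adjusted p was 0.10 with the replicate block. Without HuCCT1/CD90+ replicate 1, 2 or 3 the log2 change was -0.73, -0.87 and -0.81, with limma adjusted p of 0.078, 0.059 and 0.089. Without HuCCT1/CD90- replicate 2 it was -0.80, with a limma adjusted p of 0.081, so the call was lost in these fits while the change stayed close to its size with all libraries.

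LMNB1 encodes lamin B1, a B-type lamin that stays attached to the nuclear membrane, and lies at chr5:126776623-126837020 on the plus strand. It was at 46.1, 35.6 and 46.5 RPM in HuCCT1/CD90- and at 41.1, 39.0 and 42.1 RPM in HuCCT1/CD90+. The lines overlapped, with means of 42.7 ± 6.14 and 40.7 ± 1.57 RPM (SD, n = 3 each). The log2 change was -0.058 (SE 0.12, limma adjusted p = 0.92), with a 95% interval of -0.38 to 0.26. LMNB2, the gene of lamin B2, lies at chr19:2427638-2456996 on the minus strand and was at 57.1, 67.8 and 58.5 RPM in HuCCT1/CD90- and at 45.1, 56.0 and 66.3 RPM in HuCCT1/CD90+. These libraries overlapped too, and the log2 change was -0.14 (SE 0.17, 95% interval -0.59 to 0.30, limma adjusted p = 0.68). LMNB2 shares positions with TIMM13 on the same strand, and the position of either amplicon is not given in the sources used here. Neither B-type lamin passed the threshold under any of the 16 alternatives, and their intervals leave out a fall as large as that of VIM, NES or SYNM.

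**Figure D2:**
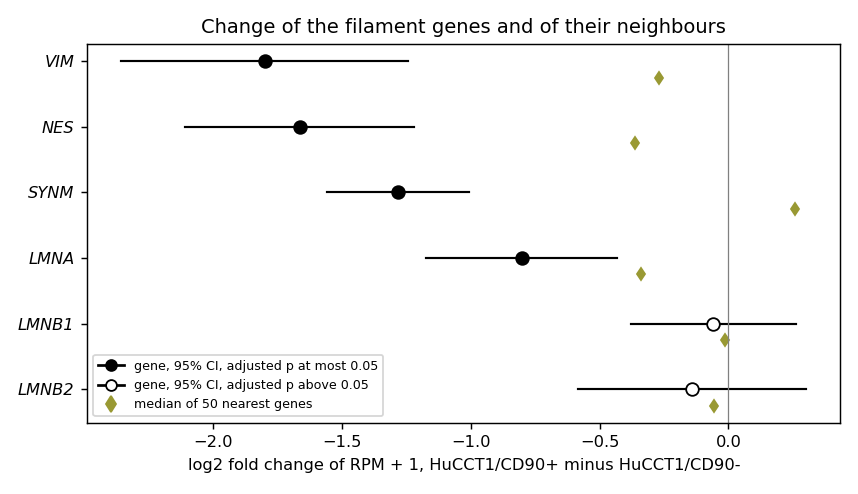
Log2 fold change of HuCCT1/CD90+ over HuCCT1/CD90- for the 6 genes above the floor, on the log2(RPM + 1) scale, with 95% intervals from limma. Filled circles passed the adjusted p threshold and open circles did not, and diamonds give the median change of the 50 nearest genes. The intervals of VIM, NES, SYNM and LMNA lie below 0, and those of LMNB1 (-0.38 to 0.26) and LMNB2 (-0.59 to 0.30) include it.

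Whether A-type and B-type lamins moved alike was asked within each library, as log2(RPM + 1) of LMNA minus the mean of LMNB1 and LMNB2. This difference was 4.61, 4.45 and 4.16 in HuCCT1/CD90- and 3.70, 3.85 and 3.56 in HuCCT1/CD90+. All HuCCT1/CD90+ libraries were below all HuCCT1/CD90- libraries. The lines differed by -0.70, with p = 0.10 in a two-sided exact permutation test over libraries, which is the smallest p that 3 against 3 libraries allow. Leaving out single libraries gave -0.82 to -0.60. Since each gene is read over its own amplicon, the size of the difference within a line does not compare the amounts of the lamins.

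Whether vimentin moved against KRT8 and KRT18, the keratin pair of simple epithelia, was asked in the same way, as VIM minus the mean of that pair. The value was -1.92, -1.16 and -1.23 in HuCCT1/CD90- and -3.92, -3.90 and -4.12 in HuCCT1/CD90+. The lines differed by -2.54 without overlap, again with p = 0.10 in the two-sided exact permutation test, and by -2.78 to -2.41 without single libraries. Without the replicate block VIM was lower and KRT8 and KRT18 were higher in HuCCT1/CD90+, and with it KRT18 alone of the 3 kept its call (limma adjusted p = 0.059 for VIM, 0.092 for KRT8 and 0.036 for KRT18). The log2 change of VIM, -1.80, enters the difference of -2.54, which is therefore not separate from it. KRT7 and KRT19 were not part of this difference and had log2 changes of 0.091 and 0.36.

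**Figure D3:**
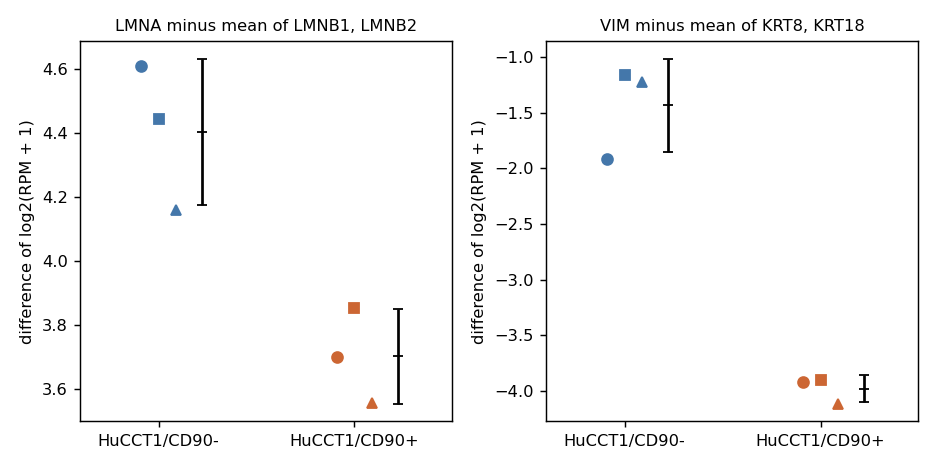
Differences between filament genes within each library, in log2(RPM + 1) units. Points are libraries, their shape gives the replicate number (circle 1, square 2, triangle 3), and bars give the mean and SD of 3 libraries. For both differences all HuCCT1/CD90+ libraries lie below all HuCCT1/CD90- libraries, by -0.70 for LMNA minus B-type lamins and by -2.54 for VIM minus KRT8 and KRT18 on average.

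The surroundings of each gene on its chromosome were described by taking its 50 nearest genes that averaged at least 10 RPM and the median of their log2 changes. This median was -0.27 around VIM, -0.36 around NES, -0.34 around LMNA and 0.26 around SYNM. NES and LMNA lie 529 kb apart on chromosome 1. With the median of the neighbours taken off, the log2 change was -1.53 for VIM, -1.30 for NES and -1.54 for SYNM, all past the threshold (limma adjusted p = 0.014, 0.012 and 0.0022). For LMNA it was -0.46 (limma adjusted p = 0.11) and no longer past it. The median was taken off as a fixed value, so these adjusted p leave out the spread of the neighbours' own changes. Whether the neighbours had a part in the fall of LMNA was not tested. Around the B-type lamins the median of the neighbours was -0.015 for LMNB1 and -0.056 for LMNB2.

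Genes that mark other cell types were read beside the fall of VIM, since vimentin is also abundant in stroma and blood cells. The fibroblast markers (COL1A1, COL1A2, COL3A1, DCN, LUM, PDGFRA and PDGFRB) summed to 41.8 to 65.3 RPM per HuCCT1/CD90- library and 20.4 to 24.7 RPM per HuCCT1/CD90+ library. Of these 7 genes, 5 were lower and 0 higher (0 also at an unadjusted p of 0.05, by edgeR and by DESeq2). By limma 9.52% of all 20811 genes were lower, and 15.0% of those whose mean reached 1 RPM. COL1A2, COL3A1, DCN and PDGFRA were at the floor in HuCCT1/CD90+. Of these, COL1A2 and COL3A1, both called lower, averaged only 0.521 and 0.847 RPM in HuCCT1/CD90-. With the replicate block 2 of the 7 were lower, as were 10.3% of the genes whose mean reached 1 RPM, and edgeR called 3 lower. None of the fibroblast markers was at 0 in all libraries, and COL1A1 stood at 13.5 ± 2.21 and 14.2 ± 0.186 RPM (SD, n = 3 each). Endothelial markers summed to 14.5 to 23.2 RPM per HuCCT1/CD90- library and 0.643 to 1.63 RPM per HuCCT1/CD90+ library. Most of that sum in HuCCT1/CD90- was CDH5, the 1 endothelial marker that limma called lower, while edgeR and DESeq2 each called 2 lower, and VWF and KDR were at 0 there. Of the leukocyte markers, CD14 averaged 80.8 ± 10.1 and 4.32 ± 0.195 RPM (SD, n = 3 each) in the same order of lines, while PTPRC, the marker of all leukocytes, and CD3E were at the floor in both lines. The hepatocyte markers summed to 3.59 to 5.89 RPM and to at most 0.751 RPM, and APOA1 and SERPINA1 among them were lower, SERPINA1 with a limma adjusted p of 0.071 under the replicate block. The part of such cells, or of such genes within HuCCT1, in the change of VIM was not tested.

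Other filament genes outside the keratins were mostly low. Of 8 such genes 3 were at the floor in both lines (NEFH, BFSP2 and IFFO1), 3 were lower and 0 were higher in HuCCT1/CD90+, where 0 were also higher at an unadjusted p of 0.05, by edgeR and by DESeq2. By limma 9.52% of all 20811 genes were lower. Of those whose mean reached 1 RPM, 15.0% were lower, and 10.3% with the replicate block. IFFO2 went from 93.3 ± 10.5 to 45.7 ± 4.23 RPM (SD, n = 3 each, limma adjusted p = 0.0085). SYNC, which encodes syncoilin, a partner of desmin in muscle, went from 6.75 ± 2.03 to 1.16 ± 0.944 RPM (SD, n = 3 each, limma adjusted p = 0.038). PRPH, which encodes peripherin of peripheral neurons, went from 1.16 to 0.480 RPM (limma adjusted p = 0.024), and edgeR's filter on low counts removed it while DESeq2 did not call it. The median log2 change of the 5 genes above the floor was -0.55, and 0 of the 3 calls held with the replicate block (limma adjusted p = 0.069 for IFFO2, 0.15 for SYNC and 0.054 for PRPH).

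Simple epithelial keratins are the filaments of ducts and glands. Of KRT7, KRT8, KRT18, KRT19 and KRT20, 3 were higher and 0 lower, and 0 were lower at an unadjusted p of 0.05, by edgeR or by DESeq2. Among all genes whose mean reached 1 RPM limma called 14.4% higher and 15.0% lower. KRT7 (limma adjusted p = 0.65) and KRT20 (limma adjusted p = 0.074) did not pass, and with the replicate block 1 of the 5 stayed higher. That gene, KRT18, stood at 616, 676 and 642 RPM in HuCCT1/CD90- and at 1350, 1196 and 1250 RPM in HuCCT1/CD90+, a log2 change of 0.97 (SE 0.061, limma adjusted p = 0.0018, 0.036 with the replicate block). Its partner KRT8 had a log2 change of 0.52 (limma adjusted p = 0.039, 0.092 with the block) and KRT19 one of 0.36 (limma adjusted p = 0.029, 0.14 with the block). The median log2 change of the 5 keratins was 0.52.

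Plakins are large linker proteins that fasten filaments to junctions, microtubules and actin, and of the 6 measured 3 were higher and 0 lower. Limma called 14.4% higher and 15.0% lower of all genes whose mean reached 1 RPM. Again 0 were lower at an unadjusted p of 0.05, by edgeR or by DESeq2, each of which gave 4 higher, and the median log2 change was 0.68. The gene they added was EVPL, which encodes envoplakin, with a log2 change of 0.69 (limma adjusted p = 0.056, edgeR adjusted p = 0.0016). PPL, the gene of periplakin, stood at 29.1, 36.9 and 31.0 RPM in HuCCT1/CD90- and at 74.4, 112 and 109 RPM in HuCCT1/CD90+, a log2 change of 1.56 (SE 0.20, limma adjusted p = 0.012). DSP, the gene of desmoplakin, which anchors keratins at desmosomes, had a log2 change of 1.19 (SE 0.051, limma adjusted p = 0.00080). MACF1, which links microtubules and actin, had one of 0.67 (limma adjusted p = 0.020, 0.074 with the replicate block). PLEC, the gene of plectin, which binds vimentin, stood at 52.1 ± 11.2 and 41.0 ± 7.16 RPM (SD, n = 3 each, limma adjusted p = 0.41).

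Kinases, turnover factors and chaperones of filaments gave 2 higher and 1 lower of 13 above the floor, with a median log2 change of 0.13. Among all genes whose mean reached 1 RPM 14.4% were higher and 15.0% lower, so these counts do not stand out. PAK1 and PAK2, p21-activated kinases that can phosphorylate vimentin, had log2 changes of 0.82 and 0.91 (limma adjusted p = 0.0039 and 0.0056). PRKCA, a protein kinase C gene, stood at 112 ± 19.2 and 49.9 ± 6.75 RPM (SD, n = 3 each), with a log2 change of -1.14 (limma adjusted p = 0.018, and just past the limit at 0.0501 with the replicate block). On whole reads edgeR and DESeq2 each called 4 genes of this list higher and 3 lower. The share of all genes that these tools called is not given here, so whether those counts stand out was not tested.

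The enzymes that process lamins had a median log2 change of -0.0017. Of these 5 genes 1 was higher and 0 were lower. These counts do not stand out from the 14.4% higher and 15.0% lower of all genes whose mean reached 1 RPM. The higher enzyme gene was RCE1, a protease that trims farnesylated proteins, with a log2 change of 0.35 (limma adjusted p = 0.033, 0.070 with the replicate block), and neither edgeR nor DESeq2 called it. At an unadjusted p of 0.05, 1 enzyme gene was lower, and edgeR and DESeq2 each called 2 lower. ZMPSTE24, which cuts prelamin A, stood at 10.6 ± 4.07 and 10.4 ± 2.69 RPM (SD, n = 3 each, limma adjusted p = 1).

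The LINC complex couples the nuclear lamina to the cytoskeleton. Of 16 lamin partners and LINC genes 3 were higher, 3 lower and 10 not called, a share in each direction near the 14.4% higher and 15.0% lower of all genes whose mean reached 1 RPM. The median log2 change was 0.064. Of the 4 nesprin genes, whose proteins span the outer nuclear membrane, SYNE1 and SYNE2 were lower and SYNE3 and SYNE4 higher. SYNE1 was read at 15.9, 19.4 and 20.2 RPM in HuCCT1/CD90- and at 5.79, 7.22 and 7.05 RPM in HuCCT1/CD90+, a log2 change of -1.34 (limma adjusted p = 0.0051). SYNE2 had a log2 change of -0.83 (limma adjusted p = 0.017), and SYNE1 and SYNE2 encode the nesprins that bind actin. SYNE3, the nesprin that binds plectin and so the intermediate filaments, rose from a mean of 0.881 ± 0.565 RPM to 9.33 ± 1.84 RPM (SD, n = 3 each). Its log2 change was 2.48 (limma adjusted p = 0.0077, 0.053 with the replicate block), and every HuCCT1/CD90+ library was above every HuCCT1/CD90- library. SYNE4, the nesprin that binds kinesin, averaged 0.891 ± 0.136 and 6.67 ± 1.38 RPM (SD, n = 3 each), with a log2 change of 2.01 (limma adjusted p = 0.0026). SUN1, which anchors nesprins across the envelope and binds lamin A, had a log2 change of 0.79 (limma adjusted p = 0.0015). LBR, the lamin B receptor, had one of -0.52 (limma adjusted p = 0.047, 0.10 with the replicate block). SUN2, with a log2 change of 0.43, was among the genes not called (limma adjusted p = 0.064). It passed with the replicate block (limma adjusted p = 0.021), by edgeR (adjusted p = 0.023) and by DESeq2 (adjusted p = 0.015).

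**Figure D4:**
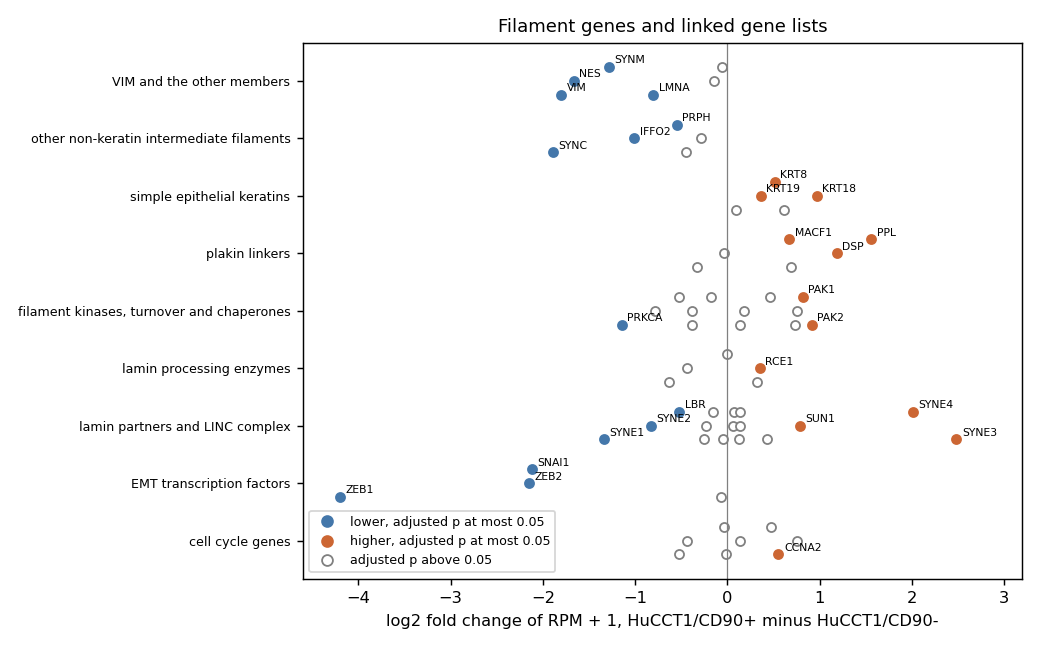
Log2 fold change of HuCCT1/CD90+ over HuCCT1/CD90- for each gene above the floor in the lists linked to the filament genes. Each point is 1 gene, filled and named where it passed the adjusted p threshold (blue lower, orange higher), with ZEB2 drawn as fitted and a vertical line at 0. Called genes among the filament members and other non-keratin filaments lie to the left of 0, called keratins and plakins to the right, and called LINC genes on both sides.

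Among transcription factors of epithelial to mesenchymal transition, 3 of the 4 above the floor in at least 1 line were lower and 0 higher (0 also at an unadjusted p of 0.05, by edgeR and by DESeq2). The share of all genes whose mean reached 1 RPM was 15.0% lower and 14.4% higher. The 4 had a median change of -2.13 on the log2(RPM + 1) scale. As log2 ratios of mean RPM, with ZEB2 at its bound against the floor of 3 reads per library, the median was -2.87. The lower genes were ZEB1, ZEB2 and SNAI1, of which ZEB2 had 0 reads in every HuCCT1/CD90+ library. SNAI2 stood at 37.8 ± 4.55 and 36.3 ± 6.87 RPM (SD, n = 3 each). Of 8 cell cycle genes 1 was higher, CCNA2 (limma adjusted p = 0.041, 0.090 with the replicate block), and 0 were lower, with a median log2 change of 0.064. These counts do not stand out from the 14.4% higher and 15.0% lower of all genes whose mean reached 1 RPM. With the block, 1 of the 8 was lower, TOP2A (limma adjusted p = 0.026), against 10.3% of the genes whose mean reached 1 RPM. At an unadjusted p of 0.05, 1 cell cycle gene was lower, edgeR and DESeq2 each called 3 higher and 2 lower, and MKI67 stood at 264 ± 46.8 and 260 ± 10.2 RPM (SD, n = 3 each).

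The genes whose profile over the 6 libraries was nearest to that of VIM were sought among the 8790 genes averaging at least 10 RPM, by the root mean square difference of log2(RPM + 1) after centring. They were EFEMP1 (0.126), ABCC3 (0.139), COL6A1 (0.152), GBP2 (0.153) and GRAMD1A (0.153). EFEMP1, which encodes the matrix protein fibulin-3, went from 221 ± 33.0 to 56.6 ± 2.38 RPM (SD, n = 3 each). COL6A1, which encodes a chain of collagen VI, went from 1937 ± 322 to 541 ± 38.1 RPM (SD, n = 3 each). As the choice fixes the direction of these genes, their fall is a description, and the 6 libraries lie in the 2 groups that the lines form.

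**Figure D5:**
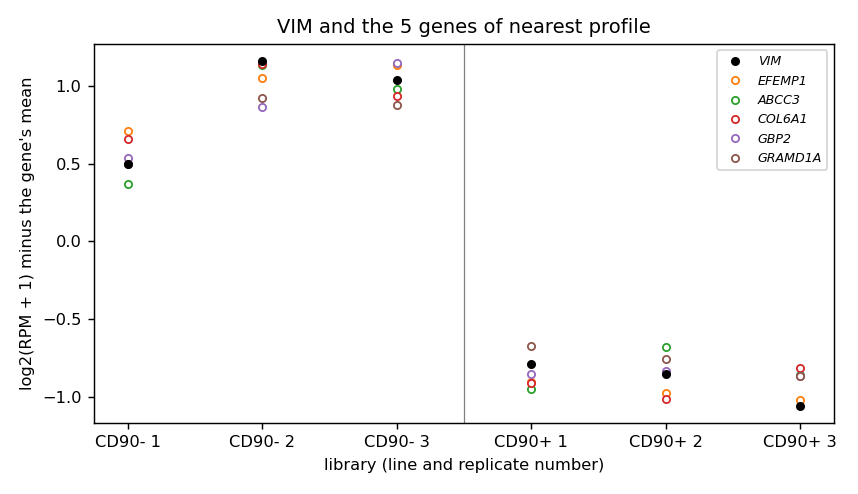
Centred log2(RPM + 1) of VIM and of the 5 genes nearest to it, across the 6 libraries. Each point is 1 gene in 1 library, filled for VIM. All 6 genes sit higher in the HuCCT1/CD90- libraries than in the HuCCT1/CD90+ libraries, with HuCCT1/CD90- replicate 1 the lowest of its line.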

How the data were processed

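Libraries for Ion Torrent sequencing were made with a human AmpliSeq panel from total RNA. Amplicon reads were counted by the authors in the ampliSeqRNA plugin, and the deposited values are RPM, normalised to the library total, for 3 libraries of each line. The submitters' processing notes name the build hg19, and gene positions given here are those of GENCODE on GRCh38. With 1 amplicon per gene, isoforms that lack it are missed.

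Members, lists and tests were chosen with earlier results of these data known. log2(RPM + 1) was fitted by limma 3.58.1 under R 4.3.3 (default lmFit and eBayes) over all 20811 genes with Benjamini-Hochberg adjustment, called at 0.05. The study's own threshold, a fold change of 1.5 with unadjusted p of at most 0.05, gave the same 4 members. The RPM values were whole multiples of 1 read in 100% of cases (within 0.002 RPM plus 1e-06 of the value), and these reads were tested with edgeR 4.0.16 (TMM, filterByExpr) and DESeq2 1.42.0. Floors of 3 reads cover counting error only, as PCR reads carry no molecular identifiers. Scripts were tested on simulated data.

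Libraries of the same number deviated together (r = 0.21, 0.32 and 0.18 for numbers 1, 2 and 3, against -0.29 to 0.07 for other pairs). Deviations within a line sum to 0, so the other pairs fall where these rise. From this check alone the numbers were taken as pairs in the replicate block and the sign-flip test. The main limma fit, edgeR, DESeq2 and the permutation tests did not use the pairs. Alternatives were offsets of 0.1 and 5 RPM, a filter at a mean of 1 RPM, quantile normalization, median centring, the replicate block, a trended and robust eBayes, each library left out, edgeR, DESeq2 and the 50 nearest genes taken off. Among genes whose mean reached 1 RPM, the 2 normalizations shifted the log2 change by a median of -0.018 and -0.026. All 10 members were named, then up to 4 called genes per list and direction with a mean of at least 1 RPM, and the 5 genes nearest to VIM. PRPH, under that level, and genes that were not called were named after their values were seen. EPPK1 of the plakin list was not used here. Some marker genes are not reported here.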

Additional observations from a re-analysis of the deposited data

How the results depend on the processing

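The log2 change of VIM kept its direction and its call in 15 of 16 alternatives. The exception was the replicate block, where it was -1.80 with a limma adjusted p of 0.059. The block left 1 of the 4 lower members called, SYNM, and among the members it ended the calls of VIM, NES and LMNA and changed no other. Both tests within libraries kept their direction, and with the pairs kept the smallest p of the exact sign-flip test is 0.25. Besides the block, LMNA lost its call in 4 of the 6 fits with a library left out and when its 50 neighbours were taken off (-0.46, adjusted p = 0.11). The log2 change of LMNB1 ranged from -0.18 to 0.0064 when single libraries were left out. An offset of 5 RPM brought NES to -1.08 and SYNM to -0.69, where the low counts limit the size of the change but the direction held. DES, INA, NEFL and NEFM were at or under the floor in both lines and could not be compared. Why their reads were so few was not tested. Leaving out a library leaves 2 in its line, and no cause of any change was tested.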
